A study of Mus musculus with 12 samples.

Results

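The insulin-like growth factor (IGF) genes were followed through satellite cells, the Pax7+ stem cells of skeletal muscle, that had or had not lost the chemokine receptor gene Cxcr4. The members were the 10 rows of the count table named Igf1, Igf2, Igf1r, Igf2r, Igfbp2, Igfbp3, Igfbp4, Igfbp5, Igfbp6 and Igfbp7, out of 55401 genes in all, and they were chosen by name. Each of the 12 RNA-seq libraries held mouse hind limb cells sorted for the Pax7-ZsGreen reporter, either lysed at once (quiescent) or after a night in growth medium (activated). All mice carried Cxcr4 FL/FL and Pax7-ZsGreen and received tamoxifen at 80 mg/kg on 5 consecutive days. The Cxcr4 KO mice also carried Pax7-creERT2, which drives tamoxifen-dependent recombination in Pax7+ cells, and the Cxcr4 WT mice lacked it. There were 4 quiescent libraries per genotype and 2 activated libraries per genotype. The mice were adults of 3 to 4 months. The labels did not say whether a library was 1 animal, so p-values measure only the spread between libraries.

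IGF-I and IGF-II are secreted ligands that act through the type 1 IGF receptor, a tyrosine kinase whose adaptor proteins IRS1 and IRS2 pass the signal to PI3K, AKT and mTOR. In muscle this pathway is known for driving growth, and IGF-II is known for its part in myoblast differentiation. The type 2 receptor, the product of Igf2r, carries no kinase and takes IGF-II to the lysosome, whereas the binding proteins hold the ligands outside the cell and so set how much reaches the receptors.

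The quiescent libraries held 12775593 to 23717013 counts and the activated libraries held 3172164 to 5427280. Values are counts per 1000000 after TMM scaling (CPM), in which 3 counts, the limit that a count of 0 allows, stood for 0.125 to 0.213 CPM in quiescent and 0.490 to 1.31 CPM in activated libraries. A gene was called at an edgeR quasi-likelihood adjusted p (Benjamini-Hochberg over 25771 genes) below 0.05, a log2 fold change beyond 1 in size and a mean count above 10. All 10 members passed the filter on low counts. Cxcr4 was 59.1 to 112 CPM in WT quiescent and 12.5 to 21.2 CPM in KO quiescent libraries, a called difference (log2 fold change −2.24, SE 0.31, edgeR adjusted p = 0.00477), and 14.4 and 33.3 CPM in WT activated against 5.39 and 13.7 CPM in KO activated libraries, which was not called (log2 fold change −1.35, SE 0.46, edgeR adjusted p = 0.381). Pax7, the defining satellite cell gene, was 303 to 482 CPM in WT quiescent and 181 to 290 CPM in KO quiescent libraries (log2 fold change −0.67, SE 0.23, edgeR adjusted p = 1), and 71.2 to 129 CPM in the 4 activated libraries. All 10 satellite cell markers were read in every quiescent library, at a summed 3818 to 5835 CPM, and their sum was 1092 to 1669 CPM in activated libraries, while 10 muscle fibre markers rose from 321 to 1091 CPM to 7842 to 18969 CPM. Transcripts of 4 Y-linked genes summed to 358 to 660 CPM in the quiescent and at most 2.51 CPM in the activated libraries, and Xist was 1.20 to 7.17 CPM in the former and 451 to 817 CPM in the latter. A ribosomal RNA gene, CT010467.1, took 0.295 to 0.807% of the counts in the quiescent and 11.5 to 40.3% in the activated libraries. Thus culture, sex, depth and this share cannot be told apart in any comparison of activated with quiescent cells.

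In freshly sorted cells the family was read mostly from its binding proteins. Per kilobase of annotated exon, WT quiescent levels ran from Igfbp7 (120 ± 13.0 CPM per kb, SD, n = 4) and Igfbp5 (114 ± 22.8), whose libraries overlapped, to Igfbp4 (46.2 ± 8.52) and Igfbp6 (31.5 ± 5.14). Igfbp3 (17.6 ± 8.43), Igf2r (17.1 ± 2.00) and Igf1r (12.8 ± 3.01) followed, each overlapping the next. Igf1 (3.13 ± 1.52) overlapped Igf2 (2.67 ± 0.98), and Igfbp2 (1.05 ± 0.33) was lowest. The place of Igf2 depends on how reads on exons shared with other genes were counted. Over the bases of its own alone it would be 7.53 ± 2.76. In activated cells Igfbp3 led the per kilobase order instead, at 28.9 ± 12.2 CPM per kb in WT and 26.2 ± 5.17 in KO (n = 2 each), although its libraries overlapped those of the next gene in both genotypes. Igfbp1, the liver-rich binding protein whose gene lies 3.54 kb from Igfbp3, had 0 counts in all 12 libraries.

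**Figure D1:**
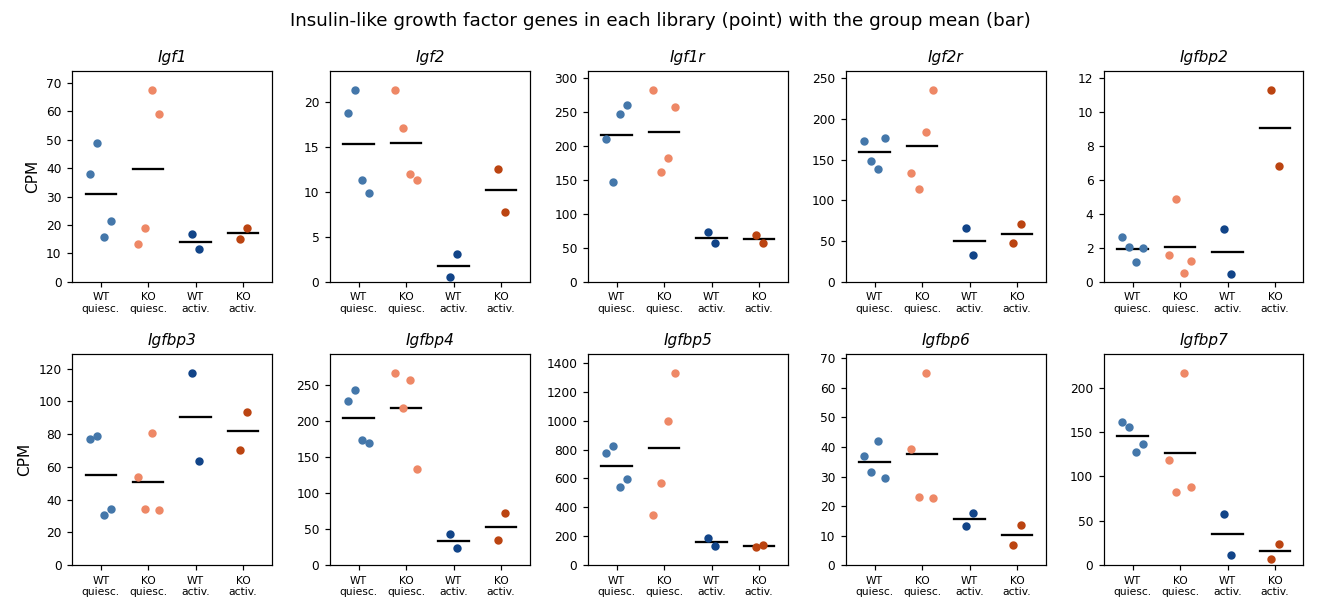
Counts per 1000000 (CPM, y axis, linear, from 0) of the 10 genes in 4 WT quiescent, 4 KO quiescent, 2 WT activated and 2 KO activated libraries, with a point per library and a bar at the group mean. Activated points lie below all quiescent points of their own genotype for Igf1r, Igf2r, Igfbp4, Igfbp5, Igfbp6 and Igfbp7. Igf2 is lowest in the WT activated libraries, and KO activated replicate 2 also lies below all quiescent points.

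Comparing KO with WT asked what the loss of Cxcr4 does in each state. In quiescent cells, 0 of 10 members were called by edgeR, beside 0.0155% of all 25771 genes, and 0 had an unadjusted p below 0.05. DESeq2 also called 0. All 10 overlapped between genotypes, and the share of all genes that did was not counted. Their log2 fold changes ran from −0.20 to 0.37 around a median of 0.06, beside a median of 0.02 over all genes. For the receptor genes the 95% intervals of the log2 difference were −0.42 to 0.49 for Igf1r and −0.43 to 0.56 for Igf2r, so a doubling or halving of either lay outside its interval.

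In activated cells, 0 of 10 were called by edgeR as well, beside 0.0504% of all genes. DESeq2 called 1 member, Igf2, beside 150 of all 55401 genes. At an unadjusted edgeR p below 0.05 there were 2 members, beside 8.37% of all genes. Both were higher in KO and did not overlap between genotypes, with 2 libraries in each: Igf2, the fetal ligand gene, and Igfbp2, a binding protein with high affinity for IGF-II. The share of all genes that did not overlap was not counted. The log2 fold changes of the other 8 ran from −1.21 for Igfbp7 to 0.65 for Igfbp4. The median of the 10 was 0.09, beside 0 over all genes. The test of whether the KO difference itself changed between states also called 0 of 10 by edgeR, beside 0% of all genes, and 0 by DESeq2. There 1 member had an unadjusted edgeR p below 0.05, beside 6.59% of all genes.

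**Figure D2:**
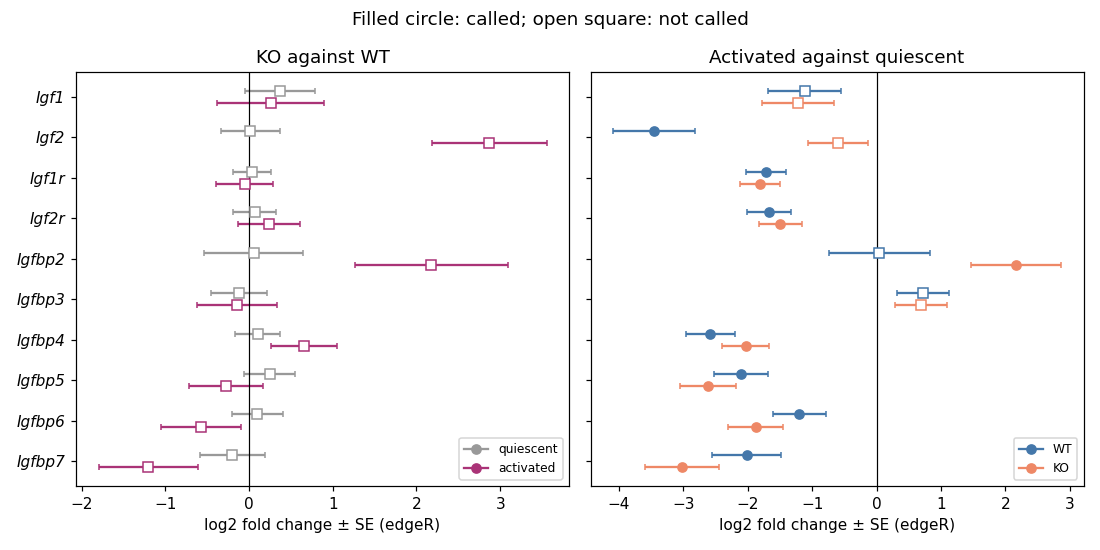
Log2 fold change with its standard error (x axis) of each of the 10 genes for KO against WT in quiescent and in activated cells (left) and for activated against quiescent in WT and in KO cells (right). Filled circles passed the call rule and open squares did not; no gene is filled on the left, 7 are filled in WT on the right and 7 in KO.

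Activation was the comparison in which the family moved. In WT cells 7 of 10 members fell, Igf2, Igf1r, Igf2r, Igfbp4, Igfbp5, Igfbp6 and Igfbp7, beside 16.5% of all genes called lower. No member was called higher by edgeR or DESeq2 in WT, where 9.65% of all genes were. In KO cells 6 of 10 fell, Igf1r, Igf2r, Igfbp4, Igfbp5, Igfbp6 and Igfbp7, beside 18.5% of all genes, and 1 rose, Igfbp2, beside 11.1%. The median of the 10 log2 fold changes was −1.69 in WT and −1.65 in KO. Over all 25771 genes the median was −0.92 and −0.96, and over the 14006 genes with an average log2 CPM above 1 it was −0.24 and −0.22. These WT and KO comparisons share no library. In these bulk samples fewer cells of a type and less RNA per cell cannot be told apart. The 9 smooth muscle and pericyte markers summed to 1492 to 2767 CPM in the quiescent and 224 to 426 CPM in the activated libraries, with 5 of 9 called lower in WT and 7 of 9 in KO, and their part in the falls of the members was not tested. Notch3, the most abundant of them, was 367 to 997 CPM in the quiescent and 9.35 to 24.7 CPM in the activated libraries. With the ribosomal RNA gene left out of the table, 7 members were called in WT and 7 in KO, as with it.

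Igf1 (chr10:87858265-87937042, plus strand, GRCm38), the gene of the ligand best known from liver and repairing muscle, was 37.8, 48.7, 15.8 and 21.5 CPM in the WT quiescent and 13.4, 18.99, 67.5 and 59.1 CPM in the KO quiescent libraries. Activated libraries gave 16.7 and 11.4 CPM in WT and 15.2 and 18.9 CPM in KO. The KO quiescent libraries thus split into a low and a high pair that spanned the WT values, and the activated values lay inside the quiescent range or just below it. The fall upon activation was not called in WT (log2 fold change −1.11, SE 0.57, edgeR adjusted p = 0.141) or in KO (−1.22, SE 0.56, adjusted p = 0.0981), though the KO fall was called without KO quiescent replicate 1 (adjusted p = 0.0294) and both were with no filter on low counts. Markers of another cell type split the same libraries. The 12 fibroadipogenic progenitor markers, genes of the stromal cells beside the fibres, summed to 999 and 1350 CPM in KO quiescent replicates 1 and 2 and to 4069 and 2352 CPM in replicates 3 and 4. Col3a1, the most abundant of them, was 44.2, 258, 1249 and 1001 CPM in the same 4 libraries. In the WT quiescent libraries the sum was 2255, 2585, 2035 and 1874 CPM. Whether these cells contributed to the Igf1 reads was not tested.

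Igf2 (chr7:142650766-142666816, minus strand) was 18.7, 21.3, 11.3 and 9.83 CPM in WT quiescent and 21.3, 17.1, 11.96 and 11.3 CPM in KO quiescent libraries. WT activated libraries had 0.490 and 3.07 CPM, from 3 and 7 counts, and KO activated libraries had 12.6 and 7.76 CPM, from 49 and 34 counts. Only the WT activated libraries left the quiescent range by a wide margin, and 1 of the KO activated libraries was within it. In WT the fall was 11.0-fold (log2 fold change −3.46, SE 0.63, edgeR adjusted p = 0.000325), and its log2 value was −2.23 without WT activated replicate 1 and −4.88 without replicate 2, called in both. In KO it was not called (log2 fold change −0.60, SE 0.46, edgeR adjusted p = 0.301). Between genotypes in activated cells Igf2 was 7.30-fold higher in KO (log2 fold change 2.87, SE 0.68), with an unadjusted p of 0.000472 and an edgeR adjusted p of 0.137. The summed counts, 10 in WT against 83 in KO, gave a ratio of 8.43 with a 95% interval of 4.36 to 18.2 for counting error alone. DESeq2 called this difference (adjusted p = 0.0179), and so did edgeR without WT activated replicate 2 (log2 fold change 4.28, adjusted p = 0.0102), whereas without WT activated replicate 1 it was 1.63 with an adjusted p of 1. The difference of differences between states was 2.85 (SE 0.77, unadjusted p = 0.00146, edgeR adjusted p = 0.380), and it draws on the same WT activated libraries as the fall in WT.

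What was counted as Igf2 depends on its neighbours. In GENCODE M21, 3596 of the 5723 exon bases of Igf2 lie on exons of Gm49394, another annotated gene of the same strand, and 98 on Igf2os, a noncoding gene of the other strand, which leaves 2029 bases of its own. Of the 678 coding bases, 546 are shared. Gm49394 has no exon base of its own in that annotation and stood at 0 counts in all 12 libraries, so no read was assigned to it. The study counted on a later release, and how reads on overlapping genes were handled is not given in the sources used here. If such reads were left out, the Igf2 counts rest on the bases of its own, which lie mostly in the noncoding exons near its alternative starts. Over those bases the level would be 7.53 ± 2.76 CPM per kb in WT quiescent, 7.60 ± 2.33 in KO quiescent, 0.876 ± 0.897 in WT activated and 5.01 ± 1.68 in KO activated cells, in place of 2.67, 2.69, 0.311 and 1.78 over all exon bases. The fold changes are not touched by the length. Among the other members only Igfbp7 shares exon bases, 85 of 1209 with Polr2b.

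**Figure D3:**
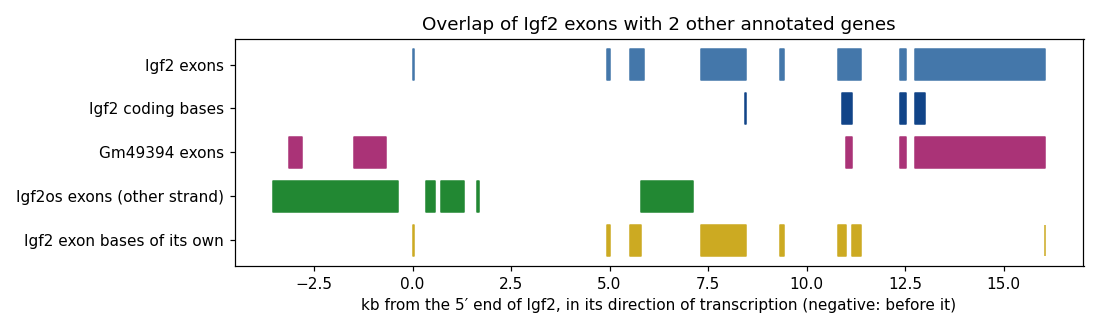
Map to scale of the exons of Igf2, its coding bases, the exons of Gm49394 and Igf2os, and the Igf2 exon bases found in neither, with distance in kb from the 5′ end of Igf2 on the x axis. The 2029 bases of its own lie mainly in the upstream exons, and the long last exon is shared with Gm49394.

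Because the Igf2 exon bases shared with no other gene lie mostly near its starts, the 120 bases before each of its 4 RefSeq starts (GRCm38.p6, minus strand, 5′ to 3′) are shown in the order of transcription, with capitals for the GC box GGGCGG on either strand.
Igf2 start 1, chr7:142666817-142666936: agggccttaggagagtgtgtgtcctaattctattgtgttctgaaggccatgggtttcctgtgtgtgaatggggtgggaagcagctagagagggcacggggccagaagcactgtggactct
Igf2 start 2, chr7:142661272-142661391: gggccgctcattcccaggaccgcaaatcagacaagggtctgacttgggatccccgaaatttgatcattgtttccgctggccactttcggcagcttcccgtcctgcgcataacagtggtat
Igf2 start 3, chr7:142658805-142658924: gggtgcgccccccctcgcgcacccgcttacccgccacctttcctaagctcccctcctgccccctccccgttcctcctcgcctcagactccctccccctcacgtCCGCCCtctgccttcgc
Igf2 start 4, chr7:142657497-142657616: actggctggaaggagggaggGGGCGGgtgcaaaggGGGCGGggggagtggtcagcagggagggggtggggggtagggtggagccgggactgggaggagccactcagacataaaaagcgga
In the 250 bases before the start, the GC box was found 0, 0, 1 and 2 times in this order, and 32.7% of all 32851 promoters held it. The counts are summed over the gene and do not show which start was used.

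The transcripts around Igf2 moved too. H19, the noncoding RNA of the same imprinted locus, 72.6 kb away, was 53.4 to 244 CPM in WT quiescent and 48.3 to 148 CPM in KO quiescent libraries. It was 465 and 903 CPM in WT activated and 2112 and 3115 CPM in KO activated libraries, so each activated library lay above every quiescent one. The rise was 5.63-fold in WT (log2 fold change 2.49, SE 0.47, edgeR adjusted p = 0.000431) and 29.0-fold in KO (4.86, SE 0.50, adjusted p = 5.24e-07), and the WT log2 value was 3.12 without WT quiescent replicate 2. Between genotypes in activated cells H19 was 3.82-fold higher in KO but was not called (log2 fold change 1.94, SE 0.58, edgeR adjusted p = 0.280). Igf2os had 12 to 52 counts in each quiescent library, 0 and 0 in WT activated and 10 and 11 in KO activated libraries. It was called lower in WT activated than WT quiescent cells (edgeR adjusted p = 0.00504), at least 5.29-fold lower when set against 3 counts over the group, and the call was lost without WT activated replicate 1 (adjusted p = 0.113). Between genotypes in activated cells it was at least 7.11-fold higher in KO against the same floor, and not called (edgeR adjusted p = 0.167). Thus Igf2, Igf2os and H19 were each higher in both KO activated than in both WT activated libraries, and none of these differences passed the adjusted threshold of edgeR in the fit to all 12 libraries with the filter on low counts. The share of all genes that separated these libraries was not counted. Igf2os overlaps Igf2 on the other strand and the strand setting is not given, so its reads cannot be assigned to its own strand. Without the filter on low counts edgeR called all 3, with adjusted p of 0.000737 for Igf2, 5.89e-05 for H19 and 0.0422 for Igf2os. That fit called 332 of 46597 genes between genotypes in activated cells, against 13 of 25771 with the filter. DESeq2 on all 12 libraries did not call H19 here (adjusted p = 0.351). The study's own DESeq2 list for activated cells has H19 as higher in KO. Igf2 is not in that list, and the study's text names it as upregulated. edgeR on the compared groups alone called neither Igf2 (adjusted p = 0.572) nor H19 (adjusted p = 0.364).

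**Figure D4:**
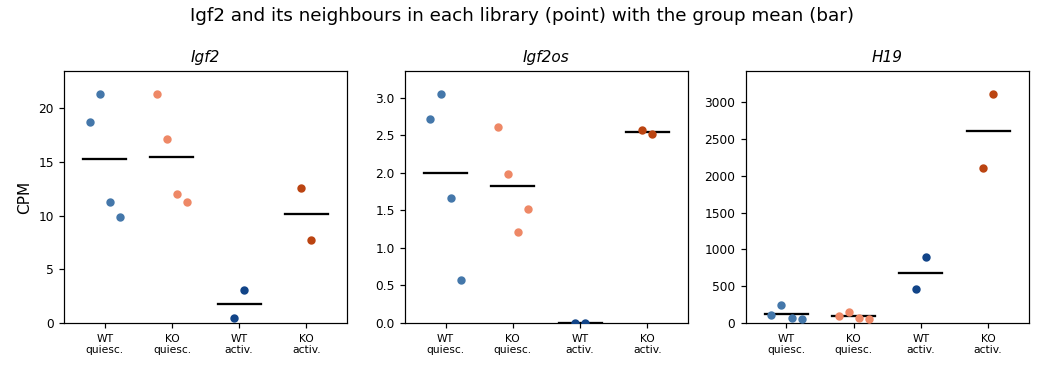
Counts per 1000000 (CPM, y axis, linear, from 0) of Igf2, Igf2os and H19 in each library, with a bar at the group mean. The 2 KO activated points lie above the 2 WT activated points for all 3 transcripts, and H19 is higher in all 4 activated than in all 8 quiescent libraries.

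Igf1r (chr7:67952827-68233668, plus strand), the signalling receptor for both ligands, was 210, 147, 247 and 259 CPM in WT quiescent and 282, 161, 183 and 257 CPM in KO quiescent libraries. It was 72.9 and 57.4 CPM in WT activated and 69.4 and 56.6 CPM in KO activated libraries. States did not overlap and genotypes did. The fall was 3.30-fold in WT (log2 fold change −1.72, SE 0.31, edgeR adjusted p = 0.000296) and 3.50-fold in KO (−1.81, SE 0.31, adjusted p = 0.000169), and the difference between these falls was −0.09 (SE 0.41).

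Igf2r (chr17:12682406-12769664, minus strand), the clearance receptor for IGF-II, was 173, 149, 139 and 177 CPM in WT quiescent and 134, 114, 184 and 236 CPM in KO quiescent libraries. Activated values were 66.3 and 32.8 CPM in WT and 47.3 and 71.2 CPM in KO, below every quiescent library. It fell 3.17-fold in WT (log2 fold change −1.67, SE 0.34, edgeR adjusted p = 0.00097) and 2.82-fold in KO (−1.49, SE 0.34, adjusted p = 0.00201). In KO the call was lost without KO activated replicate 1 (adjusted p = 0.0578). Airn, the noncoding RNA that starts within Igf2r on the other strand and shares none of its exon bases, was also called lower, with log2 fold changes of −3.21 (SE 0.41, and −3.90 without WT activated replicate 1) in WT and −2.48 (SE 0.38) in KO.
The 120 bases before the start of Igf2r (GRCm38.p6, minus strand, from RefSeq) are shown because no other start of the family had as many E-boxes. An E-box is CANNTG, the general motif of basic helix-loop-helix factors, of which the myogenic factors are only a part. It was searched on both strands, and capitals mark E-boxes and GC boxes.
Igf2r, chr17:12769707-12769826: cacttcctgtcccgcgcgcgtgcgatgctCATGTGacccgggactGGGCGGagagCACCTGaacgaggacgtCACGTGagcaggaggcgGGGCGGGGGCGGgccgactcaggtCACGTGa
Igf2r had 4 E-boxes in 250 bases, while each of the other 13 starts of the members had 0 to 2, and 66.2% of all promoters held at least 1.

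Igfbp2 (chr1:72824503-72852474, plus strand) was the member read least in quiescent cells, with 2.61, 2.06, 1.14 and 1.97 CPM in WT and 1.56, 4.85, 0.540 and 1.23 CPM in KO libraries. WT activated libraries had 3.10 and 0.438 CPM, from 19 counts and 1 count, and KO activated libraries had 11.3 and 6.84 CPM, from 44 and 30 counts. Both KO activated libraries thus lay above the other 10. The rise in KO was 4.48-fold (log2 fold change 2.16, SE 0.70, edgeR adjusted p = 0.0229), and the change in WT was 0.04 (SE 0.79, adjusted p = 0.972). The difference between these 2 changes was 2.12 (SE 1.08, unadjusted p = 0.0648, edgeR adjusted p = 0.780), so a difference between genotypes in this response was not shown. In activated cells Igfbp2 was 4.52-fold higher in KO (log2 fold change 2.18, SE 0.92, unadjusted p = 0.0279, edgeR adjusted p = 0.529), and the summed counts of 20 and 74 gave a ratio of 3.76 with a 95% counting interval of 2.27 to 6.50. The rise in KO was no longer called without KO activated replicate 1 (adjusted p = 0.214), and its log2 value was 3.06 without KO quiescent replicate 2. The log2 difference between genotypes in activated cells was 4.26 without WT activated replicate 1 and 1.47 without replicate 2, not called in either.

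Igfbp5 (chr1:72857932-72874884, minus strand), the next gene on the chromosome, 5.46 kb from Igfbp2, gave the highest count of the family. It is a binding protein known from muscle stem cells and differentiating myoblasts. Its levels were 776, 824, 542 and 597 CPM in WT quiescent and 345, 569, 1001 and 1329 CPM in KO quiescent libraries, a 3.85-fold spread in KO against 1.52-fold in WT. Activated libraries gave 188 and 130 CPM in WT and 123 and 141 CPM in KO. It fell 4.30-fold in WT (log2 fold change −2.10, SE 0.42, edgeR adjusted p = 0.000809) and 6.15-fold in KO (−2.62, SE 0.44, adjusted p = 0.00012). Its order among KO quiescent libraries was close to that of the fibroadipogenic progenitor marker sum, with replicate 1 lowest in both and replicates 3 and 4 highest in both. That sum was 419 to 876 CPM in the 4 activated libraries, below all 8 quiescent ones, and its part in the fall was not tested. The markers did not all move with the sum. Over both genotypes, mean scaled counts in quiescent and activated libraries were 97.2 and 266 for Pdgfra and 927 and 1220 for Dcn. For Col3a1 they were 8999 and 1271, and for Gsn 6863 and 1053. Of these 12 markers 5 were called lower upon activation in WT, and 5 lower and 1 higher in KO.

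Igfbp4 (chr11:99041244-99054392, plus strand), a binding protein cleaved by the protease PAPP-A, was 228, 244, 174 and 170 CPM in WT quiescent and 267, 219, 257 and 134 CPM in KO quiescent libraries. It was 43.5 and 23.6 CPM in WT activated and 34.4 and 72.5 CPM in KO activated libraries. It fell 5.98-fold in WT (log2 fold change −2.58, SE 0.38, edgeR adjusted p = 3.74e-05) and 4.09-fold in KO (−2.03, SE 0.37, adjusted p = 0.000268), and both calls held with each library left out, with a KO log2 value of −2.65 without KO activated replicate 2.
The 120 bases before its start (GRCm38.p6, plus strand, from RefSeq) are shown because this was the only start of the family with the letters TATAAA within the last 120 bases, in capitals.
Igfbp4, chr11:99041124-99041243: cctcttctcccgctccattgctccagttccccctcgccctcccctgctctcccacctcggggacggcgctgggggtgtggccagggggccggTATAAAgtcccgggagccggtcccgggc
The motif began at position −28, Igfbp6 held it at −148, the other 12 starts did not hold it in 250 bases, and 12.4% of all promoters did on either strand.

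Igfbp6 (chr15:102144362-102149511, plus strand), which prefers IGF-II over IGF-I, was 37.0, 31.6, 42.2 and 29.5 CPM in WT quiescent and 39.4, 23.0, 65.0 and 22.8 CPM in KO quiescent libraries. Activated libraries gave 13.4 and 17.5 CPM in WT and 6.94 and 13.5 CPM in KO, below all quiescent libraries. It fell 3.67-fold in KO (log2 fold change −1.87, SE 0.43, edgeR adjusted p = 0.00208) and 2.30-fold in WT (−1.20, SE 0.41, adjusted p = 0.0337). The WT call was lost in 5 of the 6 fits that left out a WT library. The edgeR adjusted p was 0.0603, 0.0504 and 0.0712 without WT quiescent replicates 1, 2 and 3. The WT log2 value was −0.92 without WT activated replicate 1 and −1.33 without replicate 2. The KO call was lost without KO activated replicate 1 (log2 fold change −1.495).

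Igfbp3 (chr11:7206086-7213923, minus strand), the main carrier of IGFs in the circulation, was 77.0, 79.0, 30.6 and 34.1 CPM in WT quiescent and 53.8, 34.3, 80.9 and 33.9 CPM in KO quiescent libraries. Activated libraries gave 117 and 63.5 CPM in WT and 70.6 and 93.5 CPM in KO. The log2 fold change upon activation was 0.72 (SE 0.40, edgeR adjusted p = 0.173) in WT and 0.69 (SE 0.40, adjusted p = 0.181) in KO, and neither was called. The quiescent values fell into high and low libraries within each genotype. The sum of 11 endothelial markers was 1820, 1810, 720 and 849 CPM in WT quiescent replicates 1 to 4 and 2006, 693, 1764 and 412 CPM in KO quiescent replicates 1 to 4. The 4 libraries with 1764 CPM or more of these markers had 53.8 to 80.9 CPM of Igfbp3 and the 4 with 849 CPM or less had 30.6 to 34.3 CPM. The smooth muscle and pericyte markers summed to 2588, 2684 and 2767 CPM in WT quiescent replicates 1 and 2 and KO quiescent replicate 3. These had most Igfbp3, and the other quiescent libraries had sums of 1492 to 1733 CPM. WT activated replicate 2 and KO activated replicate 1 had endothelial sums of 170 and 188 CPM beside their 63.5 and 70.6 CPM of Igfbp3. The part of RNA from these cell types in the Igfbp3 reads was not tested.

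Igfbp7 (chr5:77349240-77408041, minus strand), a low-affinity IGF binder abundant in vessels, was 161, 155, 128 and 136 CPM in WT quiescent and 119, 82.5, 216 and 87.9 CPM in KO quiescent libraries. Activated libraries gave 58.0 and 11.4 CPM in WT and 6.68 and 24.2 CPM in KO. It fell 4.05-fold in WT (log2 fold change −2.02, SE 0.53, edgeR adjusted p = 0.00727) and 8.14-fold in KO (−3.02, SE 0.57, adjusted p = 0.000428). The WT call was lost without WT activated replicate 2 (log2 fold change −1.26, adjusted p = 0.114), and the WT value was −3.59 without replicate 1. The KO log2 value was −4.23 without KO activated replicate 2 and −2.40 without replicate 1. The 2 WT activated libraries differed 5.09-fold. Endothelial markers summed to 919 and 170 CPM in those libraries and to 188 and 512 CPM in the KO activated libraries, so Igfbp7 was high where the sum was high in each pair. The fibroadipogenic progenitor sums had the same order, at 876 and 419 CPM in WT and 479 and 795 CPM in KO. So did the smooth muscle and pericyte sums, at 426 and 277 CPM in WT and 224 and 335 CPM in KO. Among quiescent libraries KO replicate 1 had an endothelial sum of 2006 CPM and 119 CPM of Igfbp7. WT replicate 3 had 720 and 128 CPM. The part of these cell types in the Igfbp7 values was not tested. Between genotypes in activated cells the log2 fold change was −1.21 (SE 0.59, unadjusted p = 0.0549, edgeR adjusted p = 0.606), and without WT activated replicate 1, the library with most endothelial marker reads, it was 0.34.

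**Figure D5:**
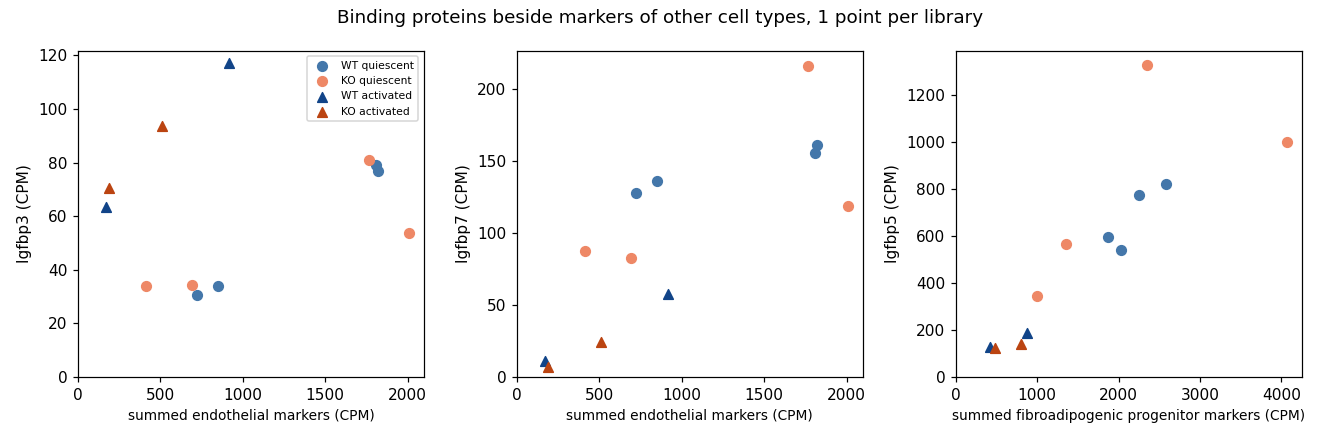
CPM of Igfbp3 and Igfbp7 against the summed CPM of 11 endothelial markers, and of Igfbp5 against that of 12 fibroadipogenic progenitor markers, with a point per library, circles for quiescent and triangles for activated. Within the quiescent libraries Igfbp3 is 53.8 CPM or more where the endothelial sum is 1764 CPM or more and 34.3 CPM or less elsewhere.

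Of 10 listed genes that set IGF availability, 8 were tested. Upon activation 2 were called higher and 1 lower in WT, beside 9.65% and 16.5% of all genes, and 2 higher and 2 lower in KO, beside 11.1% and 18.5%, with no call for genotype in either state or for their difference. Stc2, whose product inhibits PAPP-A, rose in WT (log2 fold change 1.93, SE 0.38, edgeR adjusted p = 0.000673) and in KO (2.49, SE 0.38, adjusted p = 4.1e-05). Adam12, a metalloprotease reported to cleave binding proteins, rose by 1.79 (SE 0.56) and 2.198 (SE 0.56) on the log2 scale. Igfbpl1 had 327 counts over the WT quiescent and 126 over the KO quiescent libraries and 0 in all 4 activated libraries, at least 11.9-fold and 4.40-fold lower against 3 counts over the group. The median log2 fold change of the list was −1.04 in WT and −0.46 in KO, and with genes at 0 set to their bound it was −0.25 and −0.01.

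Among 12 tested genes that carry an IGFBP domain but are no classical binding protein, 1 rose and 4 fell in WT upon activation, beside 9.65% and 16.5% of all genes, and 1 rose and 3 fell in KO, beside 11.1% and 18.5%. The secreted serine protease genes Htra3 and Htra1 fell in WT (log2 fold change −3.70, SE 0.29, and −2.52, SE 0.47) and in KO (−2.48, SE 0.27, and −3.17, SE 0.50). Esm1, an endothelial proteoglycan gene, rose from 0.940 to 3.28 CPM in the 8 quiescent libraries to 7.45 to 40.4 CPM in the activated ones (log2 fold change 3.47 in WT and 3.45 in KO). Ccn5 was called lower in WT (log2 fold change −4.22, SE 1.17, edgeR adjusted p = 0.00995) and not in KO (−1.03, SE 0.74, adjusted p = 0.273), at 4.82 CPM or less in every library. The median of the list was −1.38 in WT and −0.95 in KO.

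Downstream of the receptor, 2 of 12 tested receptor-proximal genes fell in WT, beside 16.5% of all genes, and 2 fell and 1 rose in KO, beside 18.5% and 11.1%, which is near the background in both. Irs2, one of the main receptor substrates, was 455 to 754 CPM in the 8 quiescent libraries and 40.2 to 93.6 CPM in the 4 activated ones (log2 fold change −3.21, SE 0.34, edgeR adjusted p = 1.01e-06 in WT, and −3.62, SE 0.35, adjusted p = 3.12e-07 in KO). Gab1, a docking protein gene, fell by 2.31 and by 2.36 on the log2 scale. Irs1, the other main substrate, was 24.2 to 36.5 CPM in WT quiescent and 27.8 and 31.5 CPM in WT activated libraries, but 16.2 to 32.3 CPM in KO quiescent and 55.0 and 57.0 CPM in KO activated libraries. It was called higher upon activation in KO (log2 fold change 1.14, SE 0.27, edgeR adjusted p = 0.003), and the difference between the KO and WT changes, 1.18 (SE 0.40), was not called (adjusted p = 0.581). Insr, the insulin receptor gene, was not called in any comparison.

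Of 26 genes of the PI3K-Akt-mTOR route, 3 rose and 5 fell in WT, beside 9.65% and 16.5% of all genes, and 2 rose and 5 fell in KO, beside 11.1% and 18.5%, which is near the background in both. Eif4ebp1, which encodes a translation repressor that mTOR inactivates, rose by 2.05 (SE 0.31) in WT and 2.37 (SE 0.31) in KO on the log2 scale, and Rptor, the mTORC1 scaffold gene, rose by 1.42 (SE 0.24) and 1.19 (SE 0.24). Mlst8 rose in WT (1.38, SE 0.37), and its log2 fold change in KO was 0.13 (SE 0.40). Pik3r3, which encodes a regulatory subunit of PI3K, fell in WT (−1.60, SE 0.48) and in KO (−1.51, SE 0.47). Tsc2 fell in WT (−1.47, SE 0.28) and had a log2 fold change of −0.85 (SE 0.27) in KO, inside the limit of 1. The list medians were −0.40 in WT and −0.17 in KO.

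Of 7 tested genes that bind Igf2 mRNA or overlap or neighbour Igf2 or its relatives, 5 fell and 1 rose in WT, beside 16.5% and 9.65% of all genes, and 3 fell and 1 rose in KO, beside 18.5% and 11.1%. Igf2bp1, which encodes a fetal binder of Igf2 mRNA, was 2.17 to 10.0 CPM in quiescent and 1.28 CPM or less in activated libraries, from 3 counts over WT activated and 10 over KO activated cells (edgeR adjusted p = 0.00277 in WT and 0.037 in KO). The median log2 fold change of the list was −2.11 in WT and −2.08 in KO, and −0.97 in KO with genes at 0 set to their bound.

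Between genotypes, 0 of the 65 tested genes of these 5 lists were called by edgeR in either state or for the difference between states. At an unadjusted p below 0.05 there was 1 in quiescent cells, beside 1.74% of all genes, and 13 in activated cells, beside 8.37%. The 13 included Irs1, Htra3, Tsc2, Mlst8, H19 and Igf2os, and the difference between states reached it for 7, beside 6.59% of all genes. DESeq2 called 0 in quiescent cells, 1 in activated cells, Htra3, and 0 for the difference. The lists were chosen with earlier results of these data known, so these counts cannot show an excess over all genes.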

How the data were processed

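The authors trimmed reads with Trim Galore 0.6.0, aligned them to GRCm38.p6 with STAR 2.7.2a, counted them per gene with Rsubread on GENCODE M25 and deposited a table of raw counts with 1 column per library. They also deposited FPKM values, 1 per group with no spread. Strand and overlap settings of the counting are not given in the sources used here. The members and gene lists were chosen with earlier results of these data known. edgeR 4.0.16 (R 4.3.3) was fitted to all 12 libraries with 4 group means (filterByExpr, TMM, quasi-likelihood F test, Benjamini-Hochberg). Standard errors are the fold change over the square root of F, and intervals are 1.96 standard errors. Named genes were all members, Cxcr4, Pax7, the genes around Igf2 and Igf2r, Insr, Irs1 and Irs2, and up to 3 called genes in each direction per list, of which 1 is not reported here. Levels per length are CPM over the exon union of GENCODE M21, and all 40 group means of the 10 members lay within 1 SD of the authors' FPKM. Counting intervals are exact binomial. No pair of libraries within a group agreed within sampling noise. The fit was tested on simulated data. Alternatives were DESeq2 1.42.0, other scaling, filter, threshold and dispersion choices, a replicate block and leaving out each library. Promoter sequences are from RefSeq, and no protein sequence was used here.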

Additional observations from a re-analysis of the deposited data

How the results depend on the processing

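The number of members called was computed under 8 other settings and with each of the 12 libraries left out; a library left alone in its group was assumed to vary like the other groups. For KO against WT it stayed 0 in quiescent cells. In activated cells it was 1 (Igf2) with no filter on low counts and with DESeq2, and 0 to 1 with a library left out. The difference between states gave 1 (Igf2) with no filter and 0 to 1 with a library left out. Upon activation, leaving out a library gave 5 to 7 called members in WT and 4 to 8 in KO. The value of 4 came without KO activated replicate 1, when Igf2r, Igfbp2 and Igfbp6 lost their calls. Of 940 recomputed member fold changes 11 lost a call, 8 gained one and none that was called changed sign, while 52 that were not called did. With the replicate block 0, 0, 0, 7 and 6 members were called in the order quiescent, activated, difference, WT and KO; Igfbp2 lost its call in KO (adjusted p = 0.0654) and H19 gained one between genotypes in activated cells (adjusted p = 0.00151). Same-numbered WT and KO quiescent libraries deviated together with correlations of 0.22, 0.17, −0.22 and 0.55, so the numbers were not taken as pairs. The robust fit lost Igfbp7 in WT (adjusted p = 0.0525). Between genotypes in activated cells, calls over all genes were 13 with the filter and 332 without, 150 with DESeq2, 3 on the compared groups, 0 and 211 without WT activated replicates 1 and 2, and 59 and 2 without KO activated replicates 1 and 2. The activated libraries, with 2 per genotype and the lower counts, limit the comparison of genotypes there.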
